A study of Mus musculus with 6 samples.

Results

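The GIMAP genes (GTPases of the immunity-associated protein family) were compared between plasmacytoid dendritic cells (pDCs) of wild-type (WT) mice and those of mice labelled IRF8-deficient (KO). The family was taken as 8 genes, Gimap1, Gimap3, Gimap4, Gimap5, Gimap6, Gimap7, Gimap8 and Gimap9, out of 19937 genes measured. A probe set entered if its only annotated symbol was a member, and where a gene had several it was to be chosen by its mean level over the 6 arrays. Each of the 8 had 1 probe set, so no choice by measured level was made. The family itself was picked with earlier results of these data known. Its count is therefore a description of these arrays.

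The cells were spleen cells positive for B220 and SiglecH, with 3 arrays labelled WT and 3 labelled KO, and replicates numbered 1 to 3 in each genotype. Total RNA was amplified and hybridised to Affymetrix arrays. The labels give no age, strain or allele, do not say in which cells IRF8 was missing, and do not say whether each array held RNA of its own animal, so the p-values measure the spread between these arrays, which may be technical. IRF8 is a transcription factor of dendritic cell and monocyte development, and the series title asks about its part in the last steps of pDC differentiation and in holding MYC down.

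GIMAP proteins carry a guanine nucleotide-binding domain and many sit on membranes inside the cell. They are best known from lymphocytes, where losing single members shortens the survival of T or B cells, and the genes lie next to each other in a single cluster. Their signal in a sorted pDC sample is thus read beside markers of other lymphocytes.

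All array medians lay between 5.53 and 5.56 on the log2 scale, so the arrays had been brought to one level before deposit. Irf8 itself was at 10.14 ± 0.15 in the WT arrays and 10.48 ± 0.32 in the KO arrays (SD, n = 3 each), with a limma adjusted p of 0.425. Where its probes lie relative to the altered part of the gene is not given in the labels, so that value does not check the genotypes, and each direction here rests on them. Over all genes 2.08% were lower and 2.30% higher in KO at a limma adjusted p under 0.05. Among 12 measured pDC markers 3 fell and none rose. Of these, Pacsin1 (-0.78) passed limma's threshold under every alternative, while Ccr9 (-0.97) did not pass with any single array numbered 2 or 3 left out (highest adjusted p 0.0817) and Tlr7 (-0.60) under 7 of 15 alternatives (highest 0.165). Siglech averaged 12.62 and 12.27, and the summed level of the list lay at 15.04 to 15.19 in WT and 14.93 to 14.97 in KO. Neutrophil markers varied between arrays, with summed levels of 10.6, 8.52 and 8.18 in WT replicates 1 to 3 and 14.1, 10.7 and 9.29 in KO. All 11 of them had a difference above 0 (median 0.94), 0 passed by limma (0 at an unadjusted p under 0.05), and S100a8, named after its values were seen, passed with the replicate block (adjusted p = 0.000314).

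Members of the family were lower in KO. Gimap6, Gimap1, Gimap9 and Gimap5 fell, by 1.06 to 1.68 log2 units, and none rose. That is 4 of 8 lower at a limma adjusted p under 0.05, where 2.08% of all genes were lower, 2.30% higher and 4.38% either. In the same 4 genes the KO values did not overlap the WT values, which held for 20.4% of all genes. The median difference of the 8 was -0.74, beside -0.04 for all genes. All 8 differences were below 0, although that of Gimap4 turned above 0 under quantile normalization, and 58.1% of all genes had a difference below 0. In such sorted samples, less RNA per cell and fewer cells carrying it cannot be told apart.

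Gimap6, whose protein binds an ATG8-type autophagy protein and supports lymphocyte survival, had the largest difference of the family. It measured 8.38, 8.77 and 8.82 in WT replicates 1 to 3 and 7.16, 6.49 and 7.27 in the KO arrays. The KO arrays lay at least 1.11 below the lowest WT array. The fall was 1.68 log2 units (SE 0.23, limma adjusted p = 0.00694, exact permutation p = 0.10), so KO held 31.2% of the WT level.

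Gimap1, needed for the survival of mature T and B cells, measured 6.87, 6.47 and 6.45 in WT and 5.56, 5.12 and 5.50 in KO. The groups were 0.88 apart at their nearest arrays. Gimap1 fell by 1.21 (SE 0.17, limma adjusted p = 0.00858), to 43.3% of WT.

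Gimap9 measured 6.47, 6.65 and 6.39 in WT and 5.66, 5.32 and 5.10 in KO. Its nearest arrays were 0.73 apart. Gimap9 fell by 1.14 (SE 0.16, limma adjusted p = 0.00854), to 45.2% of WT, an amount close to that of Gimap1. The exact permutation p of both genes was 0.10, the smallest that 3 against 3 arrays can give.

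Gimap5, a lysosomal membrane protein whose loss depletes lymphocytes in rodents, was dim throughout. It measured 4.49, 4.11 and 4.42 in WT and 3.47, 3.16 and 3.21 in KO. All 6 values were under 4.56, the 25th percentile over all genes and arrays. Gimap5 fell by 1.06 log2 units (SE 0.15, limma adjusted p = 0.00771, exact permutation p = 0.10). No background level was analysed here, so a difference at this brightness is given in log2 units alone and may understate the change.

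**Figure D1:**
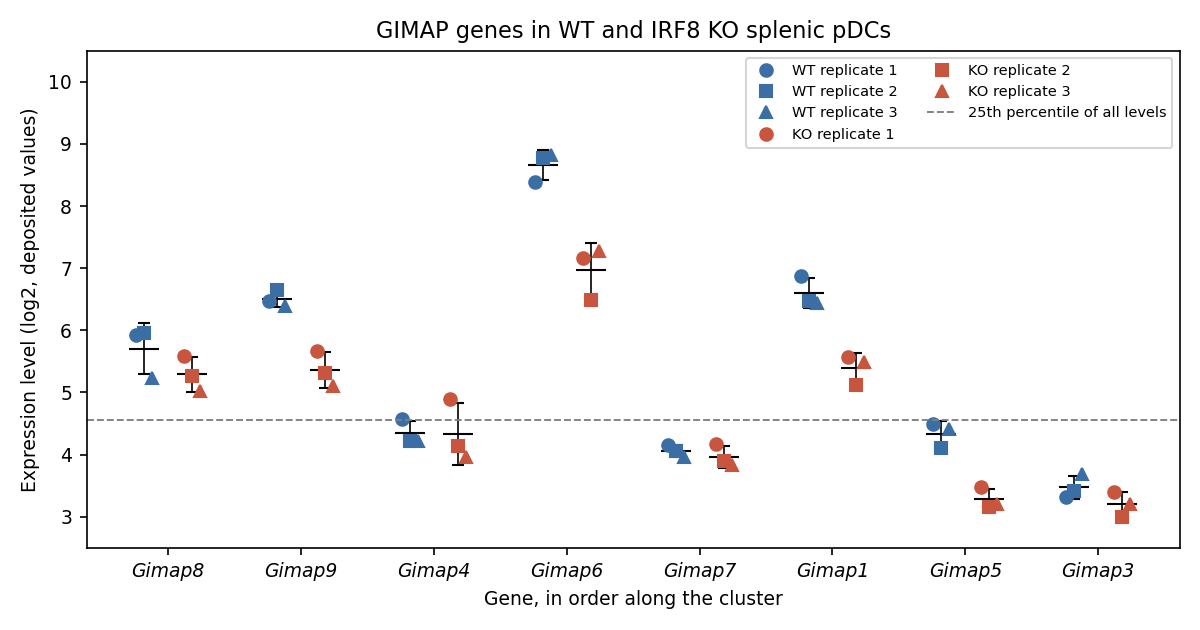
Deposited log2 level of each GIMAP gene in each array, with WT in blue and KO in red, symbols for replicates 1 to 3, and black bars for the mean ± SD of 3 arrays. WT and KO are separate for Gimap9, Gimap6, Gimap1 and Gimap5 and overlap for the other 4, and the dashed line is the 25th percentile of all levels, 4.56.

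The other 4 members did not pass the test, and 3 of them were dim in both genotypes. Gimap8, the member with several GTPase domains in one protein, was the only one of these 4 above the 25th percentile. It measured 5.92, 5.96 and 5.23 in WT and 5.58, 5.27 and 5.02 in KO. WT replicate 3 lay among the KO arrays, and the difference was -0.41 (95% interval -0.95 to 0.12, limma adjusted p = 0.459).

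Gimap3, a paralog of Gimap5 linked to mitochondria, measured 3.32, 3.41 and 3.68 in WT and 3.40, 3.00 and 3.20 in KO. Its groups overlapped (difference -0.27, 95% interval -0.62 to 0.08, limma adjusted p = 0.455). Gimap3 and Gimap5 lie side by side in the cluster. The means of both, like those of Gimap4 and Gimap7, were under the 25th percentile in both genotypes.

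Gimap7, a GTPase that can act on other family members, measured 4.15, 4.07 and 3.96 in WT and 4.16, 3.89 and 3.84 in KO. The WT range lay inside the KO range (difference -0.09, 95% interval -0.39 to 0.20, limma adjusted p = 0.806). Gimap4, linked to T cell death and cytokine secretion, measured 4.58, 4.23 and 4.23 in WT and 4.90, 4.13 and 3.95 in KO. Its highest and its lowest array were both KO (difference -0.01, 95% interval -0.59 to 0.56, limma adjusted p = 0.988). With single arrays left out, the lower end of the Gimap8 interval reached -1.11 and its difference ran from -0.65, without WT replicate 3, to -0.28. Without WT replicate 3 the 95% interval was -1.09 to -0.21. It also lay below 0 without KO replicate 1, with weighted arrays and with the replicate block, and spanned 0 otherwise. Gimap8 passed limma's threshold in none of these (lowest adjusted p 0.14). Whether any of these members changed less than the 4 that fell was not tested.

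Within KO the arrays did not rank alike for every member. KO replicate 1 was the highest KO array for 7 of the 8 genes, all but Gimap6. The lowest was KO replicate 2 for Gimap6, Gimap1, Gimap5 and Gimap3, and KO replicate 3 for Gimap9, Gimap8, Gimap7 and Gimap4. Set against the WT mean, the 4 genes that fell shifted on average by -1.06, -1.50 and -1.26 in KO replicates 1, 2 and 3. The other 4 shifted by 0.12, -0.32 and -0.39 in the same arrays. KO replicate 1 is also the array with the most neutrophil marker signal, whose part in these values was not tested. With that array left out the same 4 genes fell, Gimap6 by 1.78 and Gimap9 by 1.30.

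The members that fell were not all next to each other. Along chromosome 6 of the RefSeq assembly GRCm38.p6 the order was Gimap8, Gimap9, Gimap4, Gimap6, Gimap7, Gimap1, Gimap5 and Gimap3. Gimap9 and Gimap6 were each flanked by members that did not pass, and Gimap1 and Gimap5 were neighbours. Gimap6 and Gimap3 lie on the minus strand and the other 6 on the plus strand, so 1 of the 2 minus-strand genes fell.

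Because 4 genes of this cluster fell together, their start regions are shown with that of Gimap7, which did not pass. Each is the RefSeq window of 250 bases before to 50 after the start, 5′ to 3′ on the gene's strand. Capitals mark GGAAGT or its reverse complement ACTTCC, a form of the sites that ETS factors such as PU.1 bind. The shorter GGAA is not marked, and the Gimap7 window holds it as well. These letters were chosen after the windows had been read.
Gimap9, GRCm38.p6 chr6:48675885-48676184, plus strand: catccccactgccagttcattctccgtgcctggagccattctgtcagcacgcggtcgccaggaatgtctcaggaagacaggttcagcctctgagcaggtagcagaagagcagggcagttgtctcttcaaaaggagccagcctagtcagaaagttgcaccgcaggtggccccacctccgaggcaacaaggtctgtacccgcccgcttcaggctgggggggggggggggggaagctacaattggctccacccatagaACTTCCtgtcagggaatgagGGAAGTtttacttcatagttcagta
Gimap6, GRCm38.p6 chr6:48708195-48708494, minus strand: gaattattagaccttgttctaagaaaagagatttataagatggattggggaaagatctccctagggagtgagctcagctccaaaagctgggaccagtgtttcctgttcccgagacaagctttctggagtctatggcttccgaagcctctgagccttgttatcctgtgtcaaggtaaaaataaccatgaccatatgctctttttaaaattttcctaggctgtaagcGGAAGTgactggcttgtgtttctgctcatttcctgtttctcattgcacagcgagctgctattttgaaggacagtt
Gimap1, GRCm38.p6 chr6:48738797-48739096, plus strand: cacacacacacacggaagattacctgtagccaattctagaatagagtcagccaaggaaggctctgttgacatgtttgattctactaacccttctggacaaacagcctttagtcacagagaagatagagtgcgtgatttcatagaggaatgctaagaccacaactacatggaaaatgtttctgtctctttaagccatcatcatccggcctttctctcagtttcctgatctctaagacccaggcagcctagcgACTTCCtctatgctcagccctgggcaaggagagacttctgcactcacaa
Gimap5, GRCm38.p6 chr6:48745947-48746246, plus strand: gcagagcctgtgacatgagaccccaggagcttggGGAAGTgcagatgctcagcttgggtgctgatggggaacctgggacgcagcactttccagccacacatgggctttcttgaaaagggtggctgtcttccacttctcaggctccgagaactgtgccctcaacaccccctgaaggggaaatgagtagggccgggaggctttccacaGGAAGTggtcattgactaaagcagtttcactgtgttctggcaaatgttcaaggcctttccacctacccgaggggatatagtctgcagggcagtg
Gimap7, GRCm38.p6 chr6:48718371-48718670, plus strand: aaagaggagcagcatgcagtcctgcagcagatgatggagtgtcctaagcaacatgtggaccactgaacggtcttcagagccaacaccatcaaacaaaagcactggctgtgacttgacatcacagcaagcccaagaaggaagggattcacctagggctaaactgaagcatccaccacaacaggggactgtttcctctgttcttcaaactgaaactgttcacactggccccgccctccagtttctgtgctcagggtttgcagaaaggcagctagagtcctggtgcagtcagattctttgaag

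None of the 9 start windows of the 8 genes held an interferon-stimulated response element core, GAAANNGAAA, or an ETS-IRF composite element, GGAANNGAAA, on either strand. Of 32851 mouse windows of this length, 3.44% held the former and 2.72% the latter. IRF8 is known to use these elements among others. Other elements, including the same parts in the reverse order, were not searched. The absence says only that these letters are not in these windows. GGAAGT was added after the windows had been read. It stood in the windows of 4 of the 8 genes, namely Gimap9, Gimap6, Gimap1 and Gimap5, the same 4 that fell, and in 23.8% of all windows. The shorter GGAA, its first letters, also stood in windows of Gimap8, Gimap4, Gimap7 and Gimap3. The split therefore holds for the longer form alone, and the share of windows with GGAA was not counted. Because the letters were chosen from these same windows, that overlap is a description only, and a link to the falls was not tested. Counted from the start base as 0, the match begins at -25 in Gimap6, at -216 and -44 in Gimap5, at 1 in Gimap1, and at 5 and 25 in Gimap9. TGTGGT, a RUNX core also added late, was found in Gimap4, Gimap7 and Gimap1 and in 16.8% of all windows. A match is a run of letters, and no binding was measured here.

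Genes beside the cluster were counted in the same way, where 4.38% of all genes passed in either direction. Among the 10 nearest measured protein-coding genes on each side, 2 rose, 1 fell and 17 passed in neither direction, with a median of -0.03. The nearest gene on one side, Zfp775, stood at 5.31 ± 0.35 in the WT arrays and 5.29 ± 0.31 in the KO arrays (SD, n = 3 each), a difference of -0.02 (limma adjusted p = 0.985).

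On the other side, directly beyond Gimap3, both Tmem176 genes moved up. Tmem176b, a membrane protein of dendritic cells known as a brake on their maturation, measured 7.77, 7.47 and 7.25 in WT and 9.74, 9.13 and 9.03 in KO. Its difference was 1.81 (SE 0.22, limma adjusted p = 0.00412). Tmem176a, its paralog, measured 6.97, 7.29 and 6.91 in WT and 9.44, 8.82 and 8.70 in KO, a difference of 1.93 (SE 0.21, limma adjusted p = 0.00278). No KO array of either gene overlapped WT. Zfp467, a zinc finger factor 8 measured genes before the cluster, fell by 1.23 (limma adjusted p = 0.0109), but did not pass when WT replicate 2, WT replicate 3 or KO replicate 2 was left out (highest adjusted p 0.0526).

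**Figure D2:**
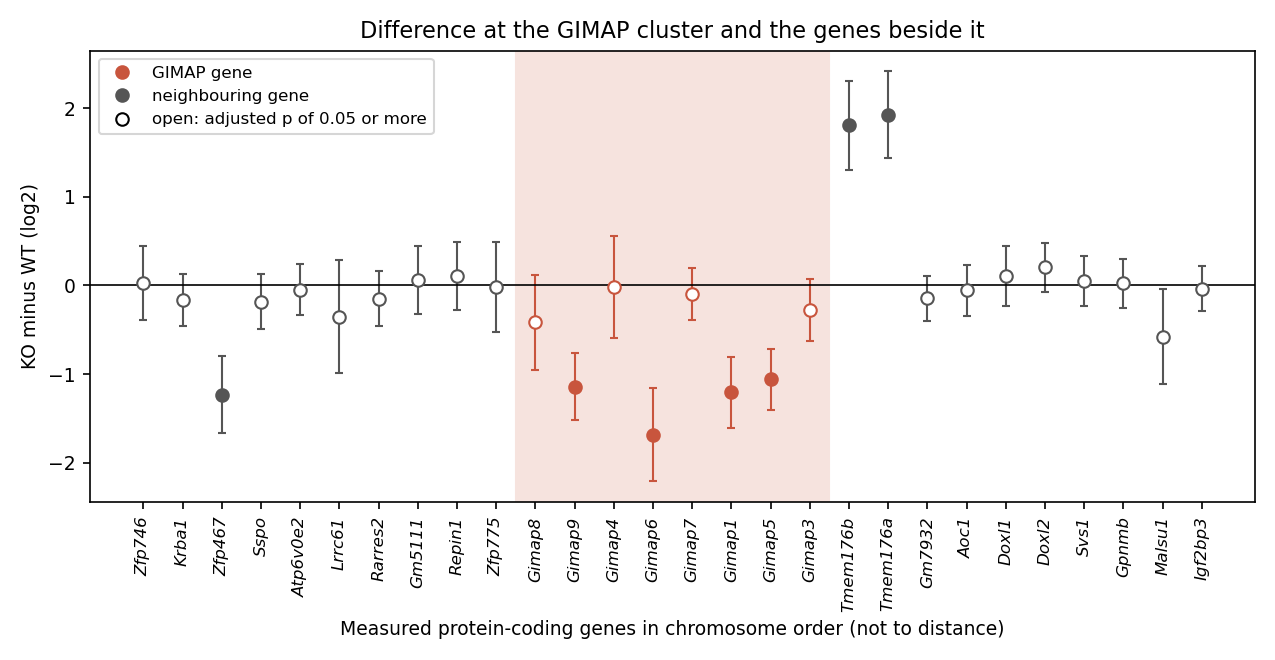
KO minus WT difference (log2, limma, with 95% intervals) for the 8 GIMAP genes, shaded, and the 10 nearest measured protein-coding genes on each side, in chromosome order. Filled points passed an adjusted p of 0.05: 4 GIMAP genes and Zfp467 lie below 0, while Tmem176b and Tmem176a, just beyond Gimap3, lie at 1.81 and 1.93.

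Genes whose products are known to work with GIMAP proteins were counted next. For these and all later lists, the share over all genes was 2.30% higher and 2.08% lower. BCL2 family proteins set the threshold of cell death and have been linked to Gimap3 and Gimap5. Of 15 measured, 3 rose and none fell (median 0.04). Bcl2, which blocks cell death, rose by 1.59, from 6.80 ± 0.21 in the WT arrays to 8.39 ± 0.41 in KO (SD, n = 3 each), with a limma adjusted p of 0.00735. Bid, a death-promoting member, rose by 0.85 (limma adjusted p = 0.0255) and Pmaip1, another, by 0.57 (0.0491). Bid did not pass with any single WT array, KO replicate 3 or both arrays numbered 1 left out (highest adjusted p 0.105). Pmaip1 did not pass under 10 of 15 alternatives (highest adjusted p 0.191).

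Of 18 genes of the ATG8 family and its conjugation machinery, the autophagy route that Gimap6 touches, none rose and 1 fell (median 0.15). Atg4a, a protease that trims ATG8 proteins, fell by 0.75 (limma adjusted p = 0.0398), lost under 8 of 15 alternatives. The highest limma adjusted p, 0.212, came with the mean of its probe sets, where the difference was -0.39. Its brightest probe set thus showed more of a fall than their mean. Of 16 genes of GSK3 and beta-catenin signalling, a kinase pathway tied to Gimap5, none rose and 2 fell (median 0.05). Apc, a scaffold that limits beta-catenin, fell by 0.82 (0.0375) and Tcf7l2, its nuclear partner, by 1.52 (0.0466), by limma's adjusted p. They were lost under 7 and 6 of 15 alternatives (highest adjusted p 0.141 and 0.163).

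Quiescence and recirculation genes, typical of resting lymphocytes, did not fall with the family. Of 16 measured, 4 rose and none fell (median 0.36). Foxo1, a transcription factor of resting lymphocytes, rose by 1.10 (limma adjusted p = 0.00188) and Lef1, a partner of beta-catenin, by 1.02 (0.00289). Satb1, a chromatin organiser, rose by 1.48 (0.0235), and the chemokine receptor Ccr7 rose by 1.24 (0.0101). Satb1 did not pass with WT replicates 1 or 2, or KO replicates 2 or 3, left out singly (highest adjusted p 0.102). Ccr7 did not pass with KO replicate 2 left out (0.0507).

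Another GTPase family of immune cells, the interferon-induced GBP, IRG and MX proteins, moved both ways. Of 13 measured, 1 rose and 1 fell (median 0.18). Gbp7 rose by 1.84 (limma adjusted p = 0.000972) and Gbp8 fell by 1.24 (0.00771), members of a family that restricts microbes inside cells. GBP genes are alike in sequence and can share signal. The same holds for GIMAP paralogs, though no accession listed for a GIMAP probe set was a RefSeq transcript of another member. Accessions from other sources were not matched to genes. Probe sequences were not used here, so shared signal among the 8 was not tested.

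Of 16 measured T cell markers, 2 rose and 2 fell (median -0.01). The summed level ran from 12.08 to 12.17 in WT and from 12.18 to 12.37 in KO. Without its brightest gene, Cd8a, a sum added after the data were seen, it was lower in KO, at 11.39 to 11.44 against 11.77 to 11.88. Cd3e, part of the T cell receptor complex and named after its values were seen, measured 5.88, 5.87 and 5.64 in WT and 6.14, 5.44 and 5.57 in KO. Cd3g, also named late, averaged 3.99 and 3.97, below the 25th percentile. The 4 that passed include co-receptors that pDCs also carry: Cd4 fell by 1.18 (limma adjusted p = 0.00227), Cd8b1 fell by 1.16 (0.00604), Cd8a rose by 1.51 (0.00128) and Cd5 rose by 1.09 (0.0159). Cd5 did not pass with WT replicate 2, KO replicate 2 or KO replicate 3 left out (highest adjusted p 0.0779).

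Of 11 measured B cell markers, 4 rose and none fell (median 0.32). Another 4 had a difference below 0 that did not pass. The summed level was 9.34 to 9.54 in WT and 10.24 to 10.33 in KO. Blk rose by 2.42 and Cd79a by 1.65, and both passed limma's threshold under every alternative in which they were tested. Cd79a averaged 4.07 in WT, below the 25th percentile of all levels. Cd22 (1.51) did not pass with WT replicate 2, WT replicate 3 or KO replicate 3 left out (highest adjusted p 0.0922), and Fcer2a (0.60) did not under 5 of 14 alternatives (highest 0.0999). NK and innate lymphoid markers summed to 11.77 to 12.07 and 12.27 to 12.58, with 1 of 14 down and none up (median 0.16). The 1 that fell had a difference of -1.26 and passed limma's threshold under every alternative in which it was tested. Klrd1, which did not pass (limma adjusted p = 0.102), made up most of that sum, and without it the groups overlapped at 8.77 to 8.91 and 8.90 to 9.49. Endothelial markers, checked because vessel cells express GIMAP genes, overlapped between the groups at 9.89 to 10.27 and 9.88 to 10.03, with 1 of 12 up and 2 down. Kdr, a growth factor receptor, fell by 2.57 (limma adjusted p = 4.81e-05), Eng by 1.26 (0.035), while Erg rose by 1.50 (0.00707). Eng did not pass with any single array numbered 2 or 3 left out (highest adjusted p 0.129).

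Of 13 measured macrophage and monocyte markers, none rose, 2 fell and 11 had a difference below 0 (median -0.37). The summed level was 11.98 to 12.11 in WT and 11.12 to 11.26 in KO. Without its brightest gene, Cd68, the groups overlapped at 10.46 to 10.89 and 10.50 to 10.57. Cd68, a lysosomal protein, fell by 1.55 (limma adjusted p = 0.000736), and C1qb, a complement subunit, by 1.47 (0.0385). C1qb did not pass under quantile normalization or with any single array numbered 2 or 3 left out (highest adjusted p 0.137). C1qc, named after its values were seen, measured 5.84, 8.93 and 8.57 in WT and 5.29, 5.74 and 4.93 in KO, so WT replicate 1 was near KO. In that WT array Cd68 (11.36) and C1qb (5.66) lay above every KO array, while Spic (3.97), also named late, lay among them. Gimap6, Gimap1, Gimap9 and Gimap5 measured 8.38, 6.87, 6.47 and 4.49 there, each above every KO array of its gene. The Gimap6 value was its lowest in WT. Of 12 measured conventional dendritic cell markers 3 rose and 4 fell (median -0.16). Their differences ran from -6.32 to 1.89, and all 7 calls held under every alternative in which the genes were tested. Their summed levels overlapped at 12.16 to 12.43 in WT and 12.17 to 12.48 in KO. Without Cd8a, their brightest gene, the level was lower in KO, at 11.39 to 11.65 against 11.87 to 12.20. Of 8 plasma cell markers 2 rose and none fell, with sums of 10.12 to 10.90 in WT and 11.11 to 12.22 in KO. None of 5 erythroid markers passed. The part of any of these marker lists in the GIMAP result was not tested.

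**Figure D3:**
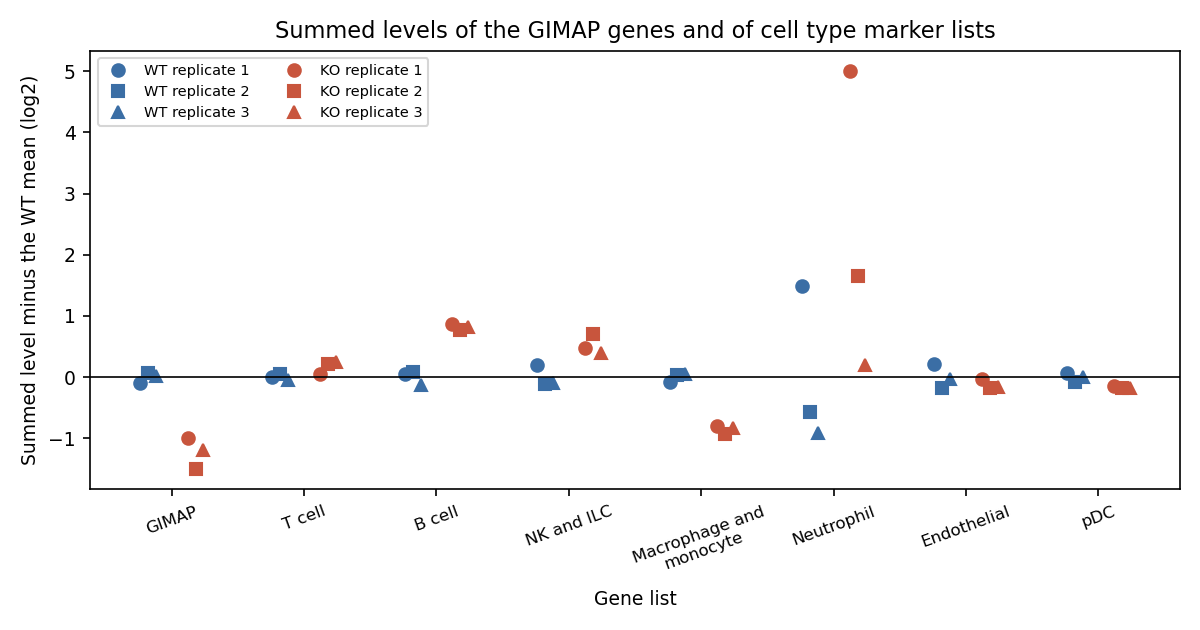
Summed level (log2 of the sum of the linear values) of 8 gene lists in each array, less the WT mean of that list, with WT in blue and KO in red. Of these 8, the GIMAP and macrophage lists, and by less the pDC list, are lower in all 3 KO arrays. The B cell, NK and, by little, T cell lists are higher there, and the neutrophil list is highest in KO replicate 1, at a summed level of 14.1. The conventional dendritic cell, plasma cell and erythroid lists are not drawn.

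The genes whose 6 values were most like the mean GIMAP profile were Yif1a, Dctn5, Rab3d, Cd300c2 and Bckdhb, with Pearson correlations of 0.9985, 0.9956, 0.9949, 0.9935 and 0.9932 over 6 arrays among 9966 genes at or above the median level. These are descriptions of arrays that share the genotype split, and 477 of those genes (4.79%) had a correlation over 0.9. Cd300c2, a receptor gene of the CD300 family, had the largest change of the 5, from 9.33, 8.83 and 8.93 in WT to 7.54, 6.55 and 6.63 in KO. In Yif1a, a trafficking protein of the Golgi, WT measured 8.47, 8.38 and 8.34 and KO 7.98, 7.66 and 7.72.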

How the data were processed

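The deposited log2 values, one level for each probe set on each array, were used as they stood, with the scale read from the values. The authors' software and normalization were not stated in the sources, and per the labels' protocols RNA was amplified with NuGen PICO SL. Of 34760 probe sets, 21640 had a single symbol in the platform annotation, giving 19937 genes, each represented by its brightest probe set. KO and WT were compared for all genes with limma 3.58.1 (R 4.3.3; lmFit, eBayes, no covariates, no filter), two-sided, with Benjamini-Hochberg adjustment over all genes and a threshold of 0.05. Exact permutation tests used all 20 relabellings. Members and gene lists were chosen with earlier results of these data known. The rule for named genes gave the 8 members, up to 4 genes past the threshold from each list, neighbours past it or nearest, and the 5 genes most like the family's mean profile. Of some marker lists fewer or no genes are named, and Irf8, S100a8, Siglech, Cd3e, Cd3g, C1qc, Spic and Klrd1 were named outside the rule. The fit was tested on simulated data. The number of arrays limits the precision. Plots were drawn with matplotlib 3.10.9. Promoter sequences are RefSeq's, build GRCm38.p6.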

Additional observations from a re-analysis of the deposited data

How the results depend on the processing

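The 4 GIMAP genes that fell passed limma's threshold under every alternative in which they were tested: 15 for Gimap1, Gimap6 and Gimap9, and 14 for Gimap5, which the filter for bright genes removed along with Gimap3, Gimap4, Gimap7 and Gimap8. Their highest adjusted p was 0.0458, for Gimap9, and their differences ran from -1.91 to -0.98. The alternatives were quantile normalization, subtraction of array medians, bright genes alone, the mean of probe sets, probe sets tested singly, robust estimation with a variance trend, weighted arrays, the replicate number as a block, each array left out, and both arrays numbered 1 left out. No alternative called Gimap3, Gimap4, Gimap7 or Gimap8 (lowest adjusted p 0.14). Gimap4 had no stable direction: it was 0.0305 under quantile normalization and ran from -0.30 to 0.17 with single arrays left out. Zfp775 was 0.0175 under quantile normalization and ran from -0.20 to 0.17 with single arrays left out. The replicate numbers were not taken to pair the arrays, because the correlation of same-numbered deviations was 0.38, 0.0968 and 0.25, not over 0.1 for each, and KO replicate 2 correlated best with WT replicate 3 (0.20). With the replicate block, 4 GIMAP genes were lower and 0 higher, as without it, while calls over all genes went from 459 higher and 415 lower to 707 and 655. Of 31 genes outside the family named as past the threshold and put through these alternatives, 16 kept their call in all of them and 15 did not. Applying the alternatives to those genes was decided after seeing the data.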
